A study of Mus musculus with 6 samples.

Results

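The Kcnq1 and Cdkn1c imprinted domain was described here from ChIP-seq peak lists of subventricular zone neural stem cell (SVZ NSC) cultures, as all peaks that overlapped the 450 kb window chr7:150270000-150720000 of the mouse build mm9. Of 43384 peaks in 3 lists, 56 lay in the window: 31 of 15187 peaks of H3K27me3 at 30 h of differentiation, 18 of 9470 peaks of H3K27me3 in proliferating cultures and 7 of 18727 peaks of H3K4me3 in proliferating cultures. The window was chosen by a measured value, the width of its largest 30 h H3K27me3 peak, so H3K27me3 at 30 h is given as a description. ChIP-seq pulls down chromatin with an antibody against a histone mark and sequences its DNA, and a peak is a stretch where the caller found more reads than background.

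All cultures were adherent monolayers of SVZ-derived neural stem cells from C57BL/6 mice at passages 5 to 7, with no allele or agent named in the labels. By the study's methods, such cultures come from early postnatal mice and are differentiated in medium with less serum and no EGF or bFGF. The 30 h sample had been differentiating for 30 h, and the other cultures were proliferating. The labels call the H3K4me3 culture ventral, so it may not be the culture used for proliferating H3K27me3. There was 1 library per list, so no difference between lists has a replicate check. The lists hold no read counts, so how deeply each library was sequenced is unknown, and depth or threshold can decide whether a peak is listed.

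H3K27me3 is the repressive mark placed by Polycomb repressive complex 2 through its methyltransferase EZH2, whereas H3K4me3 marks active or poised promoters. In an imprinted domain, genes are expressed from the chromosome of 1 parent. Kcnq1 encodes a voltage-gated potassium channel subunit, and Kcnq1ot1 is a long non-coding RNA transcribed antisense to it, from the paternal chromosome, whose start lies in a differentially methylated region that controls the domain. Cdkn1c encodes p57Kip2, an inhibitor of cyclin-dependent kinases that restrains cell division, and is expressed from the maternal chromosome. In mouse placenta, the paternal copy of the domain is known to carry Polycomb marks that depend on Kcnq1ot1. The mice were of an inbred strain and the lists carry no allelic information, so the parental copies cannot be told apart.

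In the RefSeq annotation of another build, GRCm38.p6, the protein-coding genes follow each other along chromosome 7 in the order Trpm5, Kcnq1, Cdkn1c, Slc22a18 and Phlda2, with Kcnq1ot1 inside Kcnq1. An mm9 annotation was not used here, so no peak was placed on a gene and all are given by coordinates. Of the 3 genes that name the domain, 1 had a match in the RefSeq promoter table, the start of Kcnq1ot1. The 250 bases before that start, from GRCm38.p6 on the minus strand of chromosome 7, are shown because transcription of this RNA is what the silencing of the domain is known to depend on. Capitals mark CCAAT, the pentamer known to be bound by the transcription factor NF-Y.

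Kcnq1ot1: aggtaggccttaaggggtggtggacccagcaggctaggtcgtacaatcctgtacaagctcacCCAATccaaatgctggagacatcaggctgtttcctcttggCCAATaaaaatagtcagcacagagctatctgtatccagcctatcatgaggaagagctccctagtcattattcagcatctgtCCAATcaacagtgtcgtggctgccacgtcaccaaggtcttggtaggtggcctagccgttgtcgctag

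The stretch held 3 copies of CCAAT on the strand shown and 0 on the other, beginning 188, 148 and 67 bases before the start. On either strand, 33.8% of 32851 mouse promoter stretches of 250 bases held at least 1 copy and 2.79% held 3 or more. The Kcnq1ot1 stretch had 5 CpG dinucleotides and 51.2% G and C, against medians of 6 and 52.4% over all promoters. These matches describe the letters only, since the peaks could not be laid over this sequence.

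In the window, H3K27me3 at 30 h covered 271.3 kb, or 60.3%, and proliferating H3K27me3 covered 100005 bp, or 22.2%. Proliferating H3K4me3 covered 9.05 kb, or 2.01%. The 30 h H3K27me3 peaks thus covered 2.71 times the length of the proliferating ones here, close to the ratio of 2.52 between the whole lists (73414 kb at 30 h, against 29172 kb in proliferating cultures). Covered length at 30 h is tied to the wide 30 h peak by which the window was chosen, so nothing is read from this likeness. With the 30 h list cut to the covered length of the proliferating one, the ratio in the window was 1.87. The whole lists then covered about the same length. Among 5878 consecutive stretches of the same length on the placed chromosomes, 11 had as much proliferating H3K27me3. At 30 h the number was 3, which describes the choice of the window, made on a wide 30 h peak. The proliferating number is bound to that choice too. Of the proliferating H3K27me3, 54.0 kb lay inside that 30 h peak, so nothing is read from either number. For H3K4me3, 27.7% of the stretches had as much covered.

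**Figure D1:**
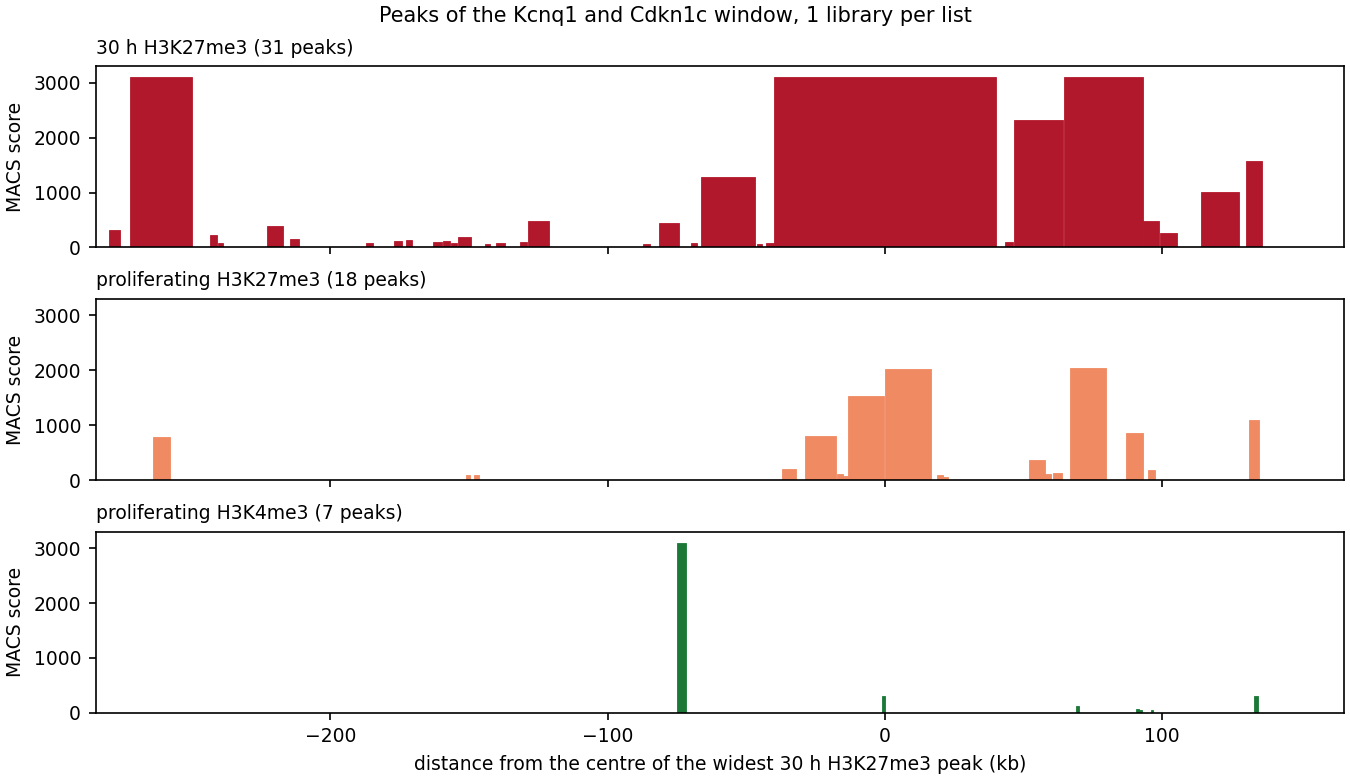
Peaks of the 3 lists in the window, to scale, with distance from the centre of the widest 30 h H3K27me3 peak (x axis, kb) and the MACS score of each peak as its height (y axis, not comparable between lists). At 30 h 3 peaks reach a score of 3100, each with proliferating H3K27me3 peaks inside it, and the 1 tall H3K4me3 peak lies outside all 3.

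The peaks were uneven in size. At 30 h, widths ran from 1861 bp to 80.0 kb with a median of 3025 bp, below the 3229 bp of the whole list. Yet 6 of 31 peaks were wider than 10 kb, or 19.4%, against 7.76% of all 30 h peaks, and those 6 held 181.4 kb of the domain. In proliferating cultures, widths ran from 1672 bp to 16.7 kb with a median of 3441 bp, above the 2074 bp of the whole list, and 4 of 18 peaks, or 22.2%, were wider than 10 kb, against 3.23% of all. Width at 30 h chose the window, so nothing is read from the 30 h share. Nor is anything read from the proliferating share. The proliferating peaks of 11.3 kb, 13.0 kb and 16.7 kb lay inside the 80.0 kb peak at 30 h by which the window was chosen.

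The largest block of H3K27me3 lay on the side of higher coordinates. The widest 30 h peak, chr7:150514571-150594578, was 80.0 kb wide, the fifth widest of its list, with a score of 3100. The deposited score is the value given by the peak caller MACS, and 3.42% of the 30 h peaks had a score of 3100 or more, so the strongest can hardly be ranked. Next to it stood chr7:150600976-150618884 (17.9 kb, score 2328.73) and chr7:150619313-150647536 (28.2 kb, score 3100). From chr7:150484671 to chr7:150594578, 5 peaks at 30 h followed each other with gaps of at most 1502 bp and filled 96.5% of 109.9 kb. After a gap of 3256 bp, another 5 peaks filled 98.0% of the 62.0 kb up to 150659811, with gaps of at most 428 bp. Taken as runs of peaks less than 3 kb apart, these ranked 12th and 58th in length of 10640 runs at 30 h. The first run holds the 80.0 kb peak by which the window was chosen, so nothing is read from these ranks.

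In proliferating cultures, the same part of the domain carried the strongest H3K27me3 peaks of the window. The highest score, 2050.41, belonged to chr7:150621434-150634235 (12.8 kb), followed by chr7:150554596-150571279 (16.7 kb, score 2024.16), chr7:150541280-150554232 (13.0 kb, score 1534.58), chr7:150685723-150689415 (3.69 kb, score 1101.43) and chr7:150641661-150647554 (5.89 kb, score 849.66). Of all proliferating peaks, 96.6% scored lower than each of the first 2. The 13.0 kb and 16.7 kb peaks, together with chr7:150525664-150536915 (11.3 kb, score 803.13), belonged to a run of 7 peaks that filled 94.7% of 51.7 kb, the 15th longest of 7853 runs in the proliferating list. The run lay wholly inside the 80.0 kb peak at 30 h by which the window was chosen, so nothing is read from its rank. Weaker peaks stood at chr7:150606539-150612250 (5.71 kb, score 360.09), chr7:150517426-150522563 (5.14 kb, score 210.79) and chr7:150615226-150618413 (3.19 kb, score 131.42). In all, 16 of the 18 proliferating peaks scored above the median of their list, 88.25, whereas 15 of the 31 peaks at 30 h scored above theirs, 154.75. Since 8 of the 18 lay in the 80.0 kb peak, nothing is read from these counts.

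The 2 H3K27me3 lists were nested. Of the proliferating peaks, 17 of 18, or 94.4%, overlapped a 30 h peak, against 61.3% of all proliferating peaks, and 16 lay wholly inside one. The exception, chr7:150406426-150408376 (1951 bp, score 93.37), stood 1090 bp from the nearest 30 h peak. In the other direction, 7 of 31 peaks at 30 h, or 22.6%, overlapped a proliferating peak, against 30.7% of all 30 h peaks. This share depended on weak 30 h peaks: with the stronger 50% of each list it was 7 of 15, or 46.7%, against 39.7% of all, and with the 30 h list cut to the covered length of the proliferating one it was 5 of 7, or 71.4%, against 88.4% of all. The order of window and list thus changed with the setting. As deposited, the 7 held 164.8 kb and the 24 others 106.5 kb. By length, 98.0% of proliferating H3K27me3 in the window was also covered at 30 h, against 74.3% over the whole lists, and 36.1% of the 30 h length was covered in proliferating cultures, against 29.5%. Across the whole list, proliferating peaks that met a 30 h peak had a median score of 130.25 and the others 66.86. In the window the median score was 198.65, and the part of peak strength in the high share was not tested. The choice of the window also bears on these shares, since 8 of the 17 lay in the 80.0 kb peak by which it was chosen, so nothing is read from them.

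Where both lists had peaks, the 30 h peaks were longer at nearly every edge. Of the 7 peaks at 30 h that met proliferating ones, 6 reached past them at both ends and 3 met several. The widest, of 80.0 kb, spanned 8 proliferating peaks that covered 67.5% of it, and went 2.86 kb beyond them on the side of lower coordinates and 17.3 kb on the other. The second widest, of 28.2 kb, spanned 2 that covered 66.2% of it. It ended 18 bp short of the proliferating peak at its upper edge, the only edge at which a proliferating peak reached further. The peak chr7:150282431-150304762, of 22.3 kb with a score of 3100, had a proliferating peak of 6.35 kb (chr7:150290603-150296952, score 787.08) in its middle, and reached 8.17 kb and 7.81 kb past it. The smallest share was there, 28.4%, and the largest in the 80.0 kb peak. Wider 30 h peaks are a feature of the whole list, and the unknown depths do not allow these edges to be read as spreading of the mark.

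**Figure D2:**
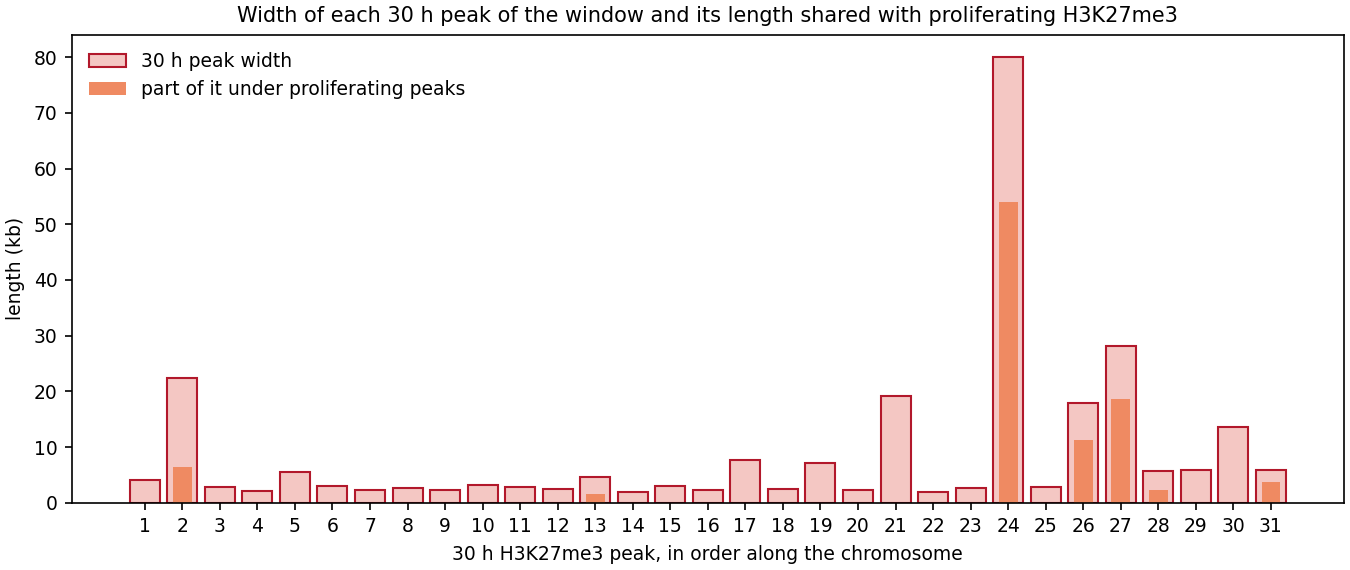
Width of each of the 31 peaks of 30 h H3K27me3 in the window (wide bars, kb), in order along the chromosome, and the length of each that proliferating H3K27me3 peaks covered (narrow bars, kb). Of the 31, 7 have a narrow bar, the largest 54.0 kb inside the 80.0 kb peak.

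Of the 24 peaks at 30 h without a proliferating peak over them, 22 were under 10 kb. The other 2 were wide: chr7:150488383-150507614 (19.2 kb, score 1286.23) and chr7:150668528-150682181 (13.7 kb, score 1015.95). By width these were the fifth and the 42nd of the 10521 peaks at 30 h in the whole list that met no proliferating H3K27me3. Among the 6 widest 30 h peaks of the window, 4 met proliferating H3K27me3, against 88.0% of all 30 h peaks wider than 10 kb. Width at 30 h chose the window, and the 6 include the 80.0 kb peak by which it was chosen. Nothing is therefore read from this share or from the ranks by width. The nearest proliferating peaks were 9.81 kb away from the 19.2 kb peak and 3.54 kb away from the 13.7 kb peak. Of the peaks under 10 kb, the widest were chr7:150425829-150433569 (7.74 kb, score 482.26), chr7:150473186-150480391 (7.21 kb, score 447.08) and chr7:150653847-150659811 (5.97 kb, score 262.34), all without proliferating H3K27me3. The next, chr7:150684599-150690561 (5.96 kb, score 1576.98), enclosed a proliferating peak.

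Long stretches free of proliferating H3K27me3 were filled to different degrees at 30 h. Between 150577323 and 150606538, inside the upper block, 87.9% of 29.2 kb was covered at 30 h. The 106.5 kb gap from 150296953 to 150403412 was covered to 37.4%, and the 109.0 kb gap from 150408377 to 150517425 to 49.1%. Beyond the last proliferating peak, the 30.6 kb up to the end of the window were covered to 3.75%. In 38 of 45 bins of 10 kb, the 30 h peaks covered more than the proliferating ones, in 0 bins less, and in the others the 2 lists were equal, at 0 in 6 and at 100% in 1. The longest stretch of the window without any 30 h peak between 2 others was 33.8 kb, after 150433569.

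**Figure D3:**
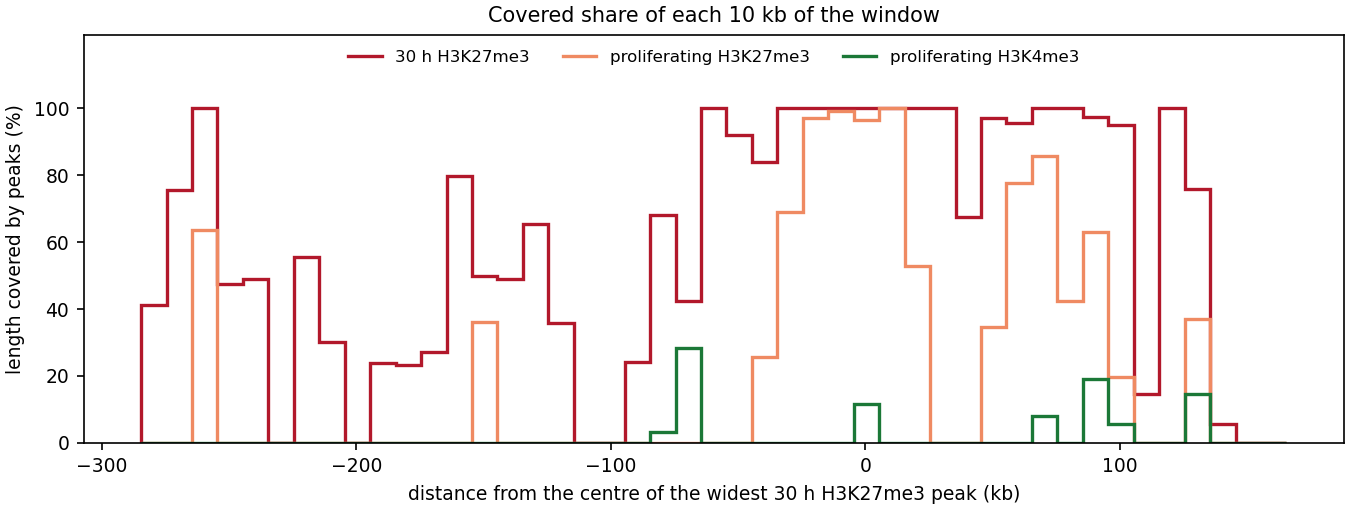
Share of each 10 kb of the window covered by peaks (y axis, percent), by distance from the centre of the widest 30 h H3K27me3 peak (x axis, kb), for the 3 lists. The 30 h line lies on or above the proliferating H3K27me3 line in all 45 bins, and both are at 100% in 1 bin.

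H3K4me3, which did not choose the window, formed 1 strong peak and 6 weak ones. The strong one, chr7:150479688-150482841, was 3154 bp wide and had a score of 3100, which 46.1% of the list reached or passed. It was wider than 86.6% of all H3K4me3 peaks. It met no proliferating H3K27me3 peak, the nearest being 34.6 kb away. At 30 h, 704 bp of it, or 22.3%, lay under the end of the 7.21 kb H3K27me3 peak that begins at 150473186. It stood in the 109.0 kb gap between proliferating H3K27me3 peaks.

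The other 6 H3K4me3 peaks all overlapped H3K27me3 in both conditions. They were chr7:150553531-150554683 (1153 bp, score 305.21), chr7:150623641-150624457 (817 bp, score 118.00), chr7:150645051-150646080 (1030 bp, score 62.13), chr7:150646339-150647214 (876 bp, score 59.87), chr7:150650556-150651104 (549 bp, score 52.34) and chr7:150687606-150689078 (1473 bp, score 310.76). All were below the median width and score of their list, 1970 bp and 2622.34, and no more than 22.8% of H3K4me3 peaks scored lower than any of them. The 3 lowest, at 62.13, 59.87 and 52.34, were close to the lowest score in the list, 50.01. Across the whole list, the median score was 685.25 for H3K4me3 peaks that met 30 h H3K27me3 and 615.01 for those that met proliferating H3K27me3, above all 6 of these. In total, 7 of 7 H3K4me3 peaks overlapped 30 h H3K27me3, against 14.3% of all, and 6 of 7 overlapped proliferating H3K27me3, against 11.0% of all. With the stronger 50% of each list, the strong peak alone was left, and 1 of 1 met H3K27me3 at 30 h and 0 of 1 in proliferating cultures. The number of peaks is small, and 60.3% of the window lay under H3K27me3 at 30 h, against 22.2% in proliferating cultures. The window was chosen on H3K27me3 at 30 h, so nothing is read from these shares. The 30 h overlap also sets H3K4me3 of proliferating cultures against H3K27me3 of a differentiating one.

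The H3K27me3 peaks around the weak H3K4me3 peaks differed in strength. The one with a score of 305.21 spanned the 363 bp gap between the 13.0 kb and 16.7 kb proliferating peaks, with 790 bp of it under them, and lay wholly under the 80.0 kb peak at 30 h. Those with scores of 62.13 and 59.87, which were 258 bp apart, both lay in the 5.89 kb proliferating peak that ends at 150647554. The one with a score of 52.34 lay in a proliferating peak of 2371 bp with a score of 186.51, below the window's median, and in a 30 h peak with a score of 475.98. The one at 150687606 took 39.9% of its 3.69 kb proliferating peak and 24.7% of its 5.96 kb peak at 30 h. From the side of H3K27me3, 5 of 31 peaks at 30 h, or 16.1%, met H3K4me3, against 16.0% of all, and 6 of 18 in proliferating cultures, or 33.3%, against 19.5% of all. The 13.0 kb and 16.7 kb proliferating peaks, inside the 80.0 kb peak by which the window was chosen, met the same H3K4me3 peak, the second by 88 bp. Proliferating peaks that met H3K4me3 were also wider, with a median of 9348 bp against 2249 bp for the others. Nothing is therefore read from these shares. Whether both marks lay on the same copy of the domain, or in the same cells, cannot be told from overlapping peaks.

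The outermost H3K27me3 peaks inside the window were chr7:150274655-150278768 at 30 h (4.11 kb, score 317.72) and chr7:150290603-150296952 in proliferating cultures on the lower side, and the 5.96 kb and 3.69 kb peaks near 150690000 on the upper side. Outside, the nearest 30 h H3K27me3 peaks were 102.9 kb below the window (chr7:150159277-150167129, score 403.65) and 206.4 kb above it (chr7:150926446-150930206, score 217.61). For proliferating H3K27me3 the distances were 111.8 kb below and 124.2 kb above. Strong H3K4me3 peaks flanked the window at both ends, 13.2 kb below it (chr7:150254905-150256812, score 3111.04) and 13.2 kb above it (chr7:150733230-150736079, score 3100).

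The 80.0 kb peak was set beside the 4 wider 30 h peaks of the genome. These measured 213.1 kb on chromosome 15, 137.5 kb on chromosome 11, 91.7 kb on chromosome 8 and 85.8 kb on chromosome 17. Proliferating H3K27me3 covered 67.5% of the peak in this domain, against 90.1%, 94.9%, 98.2% and 66.2% of the others in that order, so it was near the lower end together with chromosome 17. On the upper edge it went 17.3 kb past the last proliferating peak, against 0.849 kb, 1.25 kb and 0.544 kb on the chromosome 15, 8 and 17 peaks, and on chromosome 11 the proliferating peak reached further. On the lower edge it went 2.86 kb past the first one, against 3.56 kb, 0.755 kb, 0.266 kb and 0.501 kb on chromosomes 15, 11, 8 and 17. H3K4me3 covered 1.44% of it in 1 peak, against 0.998%, 0%, 63.0% and 8.67% of the others. The 63.0% on chromosome 8 came from 48 H3K4me3 peaks with scores of at most 256.71, below the median of their list, 2622.34. The widest proliferating peak inside it measured 16.7 kb, as on chromosome 17 (16.8 kb), whereas the others enclosed or met proliferating peaks of 139.7 kb, 105.8 kb and 88.5 kb.

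**Figure D4:**
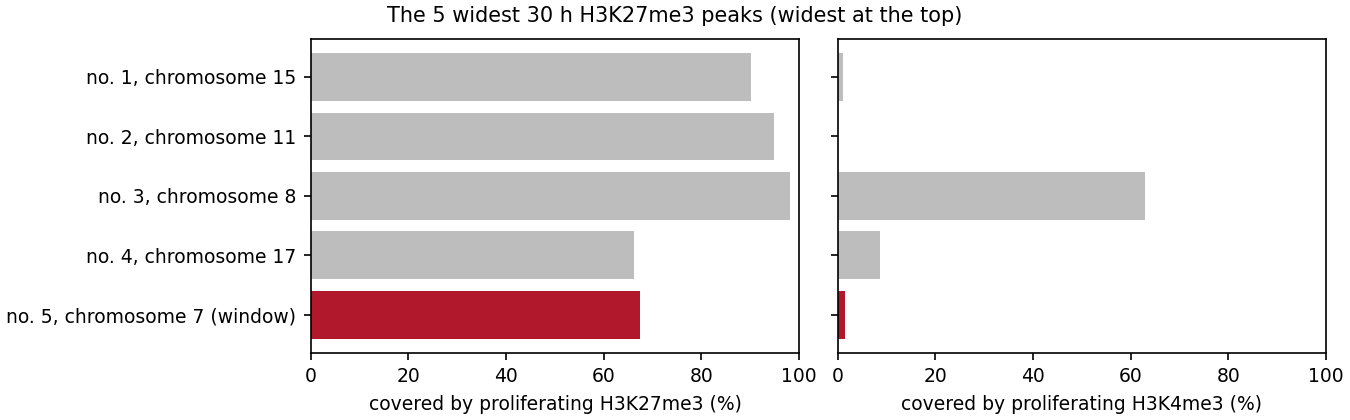
The 5 widest 30 h H3K27me3 peaks (rows, widest at the top, the one of the Kcnq1 and Cdkn1c window in red), with the share of each covered by proliferating H3K27me3 peaks (left) and by proliferating H3K4me3 peaks (right), in percent. The peak of the window is covered to 67.5% and 1.44%.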

How the data were processed

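Peaks of 3 libraries were analysed, and the inputs were not used. The submitters' processing notes name Bowtie2 and the build mm9. According to the paper's methods, the authors called peaks with MACS, for H3K27me3 with neither its model nor its local lambda. The MACS version, threshold, H3K4me3 settings and use of inputs were not given in the sources used here. Peak scores are the authors' deposited values and were used only within a list.

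Starts were read as counted from 0 and are printed counted from 1. Peaks counted as overlapping from 1 bp. Python 3.11.15, numpy 2.4.6, pandas 2.3.3, scipy 1.17.1 and matplotlib 3.10.9 were used. Overlap counts equalled those of bedtools 2.31.1 for 4 of 4 pairs of lists, and the code was tested on simulated data, where 20 of 20 pairs matched a base-by-base count.

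The peaks named were the 10 widest and the 5 highest-scoring of a list with more than 15 in the window, every peak of a shorter list, the outermost peaks inside and the nearest outside, and the proliferating peak without a 30 h peak. The last 2 kinds were named after their values were seen. The members and measures were chosen with earlier results of these data known. Cell type markers were not checked, since the lists hold no expression. The alternatives were the stronger 50% of each list, merging of peaks less than 3 kb apart, a window 50 kb wider or narrower at each end, cover of at least 50%, and a shortened 30 h list.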

Additional observations from a re-analysis of the deposited data

How the results depend on the processing

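Of 50 values recomputed under 7 settings, 37 stayed close to those reported, within 1.5 times for counts and lengths or within the 95% Wilson interval for shares of peaks. The interval served only as a tolerance, since neighbouring peaks of 1 library are not independent. Some values could hardly move, such as the widest peaks with the stronger 50%, so the 37 are no measure of stability. With the stronger 50% of each list, the window held 15 peaks at 30 h and 1 H3K4me3 peak, of 3.15 kb. Of the 30 h peaks 46.7% met proliferating H3K27me3, and of H3K4me3 peaks 1 met H3K27me3 at 30 h and 0 in proliferating cultures, because the 6 weak ones drop out. With peaks less than 3 kb apart merged, there were 14 runs at 30 h and 8 in proliferating cultures, the widest proliferating one 51.7 kb. A window 50 kb wider at each end held 18.8 kb of H3K4me3 in 10 peaks, among them the strong peaks at its borders, and the same 31 and 18 H3K27me3 peaks. With only the strongest 30 h peaks kept, in the number of the proliferating list, 19 lay in the window. At equal covered length, a setting chosen after seeing the data, 7 did, of which 71.4% met proliferating H3K27me3. In the window, the 30 h list covered 2.71 times the proliferating length as deposited, 2.40 times with the stronger 50%, 2.42 times at equal numbers and 1.87 times at equal covered length. The whole lists had a ratio of 2.52 as deposited. At equal covered length they cover about the same length by construction, so the window is not close to them there. The wide 30 h peak that chose the window stays in every one of these settings, so the direction of the ratio is no sign of stability. No paired analysis was possible because each condition had 1 library and no result comes from a test. Unknown sequencing depth limits each of these values.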

Other observations

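The following division was chosen after the values were seen. The strong H3K4me3 peak at chr7:150479688-150482841 divides the window into 209.7 kb of lower and 237.2 kb of higher coordinates. On the higher side, H3K27me3 covered 78.6% at 30 h and 38.0% in proliferating cultures, with 12 and 15 peaks. On the lower side, it covered 40.2% at 30 h and 4.76% in proliferating cultures, with 19 and 3 peaks. The median score of the peaks at 30 h was 745.96 on the higher side and 126.18 on the lower. H3K4me3 had 6 further peaks on the higher side and 0 on the lower. The higher side holds the 80.0 kb peak at 30 h by which the window was chosen, with 54.0 kb of proliferating H3K27me3 inside it. Nothing is therefore read from the difference in H3K27me3 between the sides. These values come from 1 library each, and no difference was tested.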
